A study of Mus musculus with 10 samples.

Results

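The catecholamine genes described here are 9 genes that make, store, take up or break down dopamine and noradrenaline: Gch1, Th, Ddc, Dbh, Cyb561, Slc18a1, Slc18a2, Slc6a2 and Maoa. They were chosen by name from 23553 genes in the deposited tables, and all 9 were found. Where a gene had more than 1 transcript row, the row with the highest mean over all libraries was used. The cells were Neuro-2a, a mouse neuroblastoma line whose strain the labels give as C57BL/6+C57BL/6J+CBA, so every library comes from 1 line. One group received Stealth siRNA against mouse Sfpq, a nuclear RNA-binding protein, and the control group one that targets luciferase (Luc), a reporter with no mouse counterpart. Both groups were reverse transfected with RNAiMAX in a medium with 2% fetal calf serum that the labels call differentiating. Poly(A)-selected RNA was sequenced from 3 Sfpq and 3 Luc libraries, and rRNA-depleted RNA from 1 Sfpq and 1 Luc library. Separate cultures are not stated in the labels, and p-values therefore reflect library-to-library spread that may be technical. RNA polymerase II immunoprecipitation, also listed in the series, is not analysed here.

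Catecholamines are made from tyrosine in a fixed order. Tyrosine hydroxylase (Th) makes L-DOPA with the help of tetrahydrobiopterin, a cofactor whose synthesis begins with GTP cyclohydrolase (Gch1). Aromatic L-amino acid decarboxylase (Ddc) turns L-DOPA into dopamine, and dopamine beta-hydroxylase (Dbh), a copper enzyme of the vesicle, turns dopamine into noradrenaline using ascorbate. Cytochrome b561 (Cyb561) carries electrons across the vesicle membrane to renew that ascorbate. The vesicular monoamine transporters Slc18a1 and Slc18a2 load the vesicle, Slc6a2 takes noradrenaline back from outside the cell, and monoamine oxidase A (Maoa) breaks it down. Sympathetic neurons, chromaffin cells and the neuroblastomas related to them are known for this pathway.

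Expression is given as RPKM, in which reads are divided by transcript length and library size, so levels can be compared between genes per length. Read totals are unknown. From the spacing of the lowest values, the relative depth of the poly(A) libraries was between 0.628 and 1.275 times that of Luc replicate 1, and that of the rRNA-depleted libraries at 2.65 (Sfpq) and 2.64 (Luc) times. Across tested genes, Luc replicate 3 correlated with the other Luc libraries at 0.985 and 0.979, below the 0.996 between those libraries. Sfpq RNA was 3.98, 4.75 and 6.47 RPKM in the Sfpq libraries, against 56.8, 60.8 and 73.0 RPKM in the Luc libraries. The check of the line against its lineage found 12 of 13 sympathetic neuroblast markers past the filter, led by the intermediate filament gene Prph and the tubulin gene Tubb3. Slc6a3, the dopamine transporter, and 4 of the 5 other markers of dopaminergic neurons were at 0 in all poly(A) libraries, and the summed level of the 6 markers was at most 0.0263 RPKM.

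In poly(A) RNA the cofactor gene Gch1 fell to 54.3% of its Luc mean when Sfpq was depleted. Dbh, Ddc and Cyb561 rose, by 1.75-fold, 1.72-fold and 1.41-fold as ratios of mean RPKM. The call of Ddc ended under several alternatives, and without Sfpq replicate 2 neither Ddc nor Dbh passed, which left 1 gene called higher. Th and Slc18a2 did not pass the test. Slc18a1, Maoa and Slc6a2 lay below the filter of a mean of 0.5 RPKM and were not tested. Of the 6 tested genes, 3 were thus higher and 1 lower, while of all 11727 genes tested 21.3% were called higher and 18.6% lower, 40.0% in either direction (limma on log2(RPKM + 0.5), adjusted p under 0.05). Their median log2 fold change was 0.33, against 0.05 for all tested genes. With 6 genes, nothing further is read from these counts. In bulk RNA, fewer cells that express a gene and less of its RNA per cell cannot be told apart. Sympathetic neuroblast markers moved beside these genes: 2 of 12 were higher and 8 lower. The 13 markers summed to between 1460 and 1557 RPKM in Sfpq libraries, against between 1792 and 2025 RPKM in Luc libraries. Abundant genes weigh most in this sum: Prph averaged 567 RPKM in Sfpq and 811 RPKM in Luc libraries, and Tubb3 450 and 423 RPKM. The part of the 13 markers in the results was not tested.

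**Figure D1:**
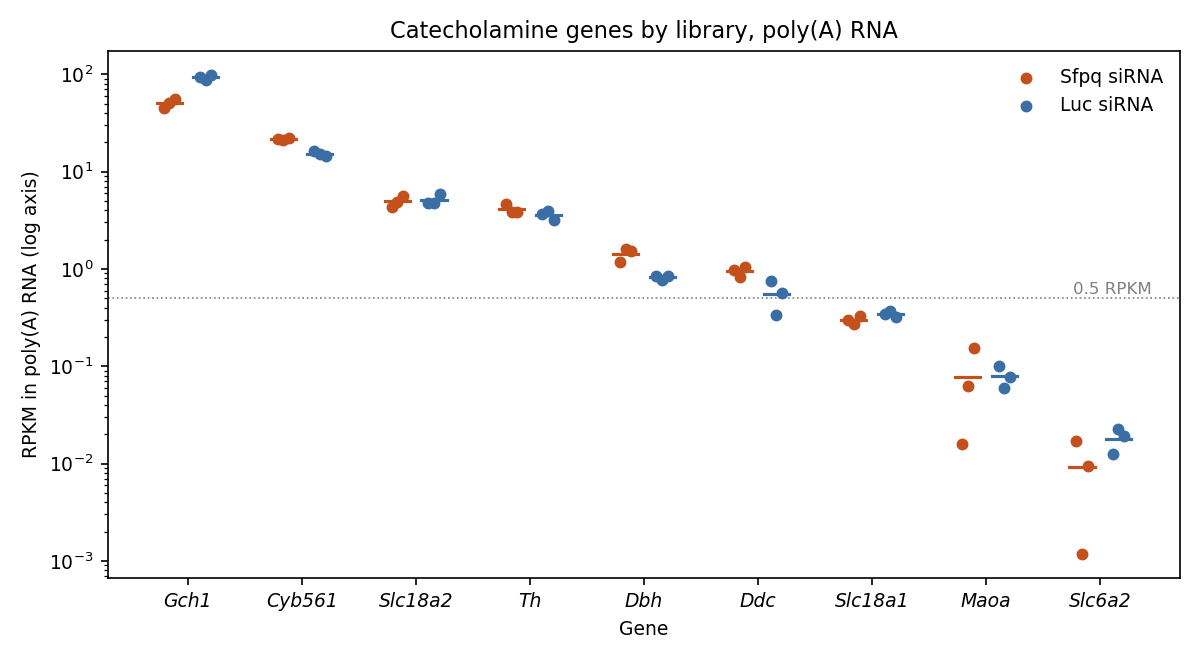
RPKM of the 9 catecholamine genes in each poly(A) library, on a log axis; points are libraries, bars the group means (n = 3 each), and the dotted line the filter of 0.5 RPKM. Gch1 lies highest and lower in all 3 Sfpq libraries, and Slc18a1, Maoa and Slc6a2 lie under the filter.

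Promoters of 4 genes are shown because they belong to the genes the results turn on: Gch1, which fell, Dbh, which rose, and Th and Slc18a2, which did not pass. Each window runs from 250 bases before to 50 bases after the gene's annotated start, from RefSeq on GRCm38.p6, read 5′ to 3′ in the direction of the gene. Capitals mark the core of the cyclic AMP response element (TGACG, or CGTCA on the other strand), its full form TGACGTCA, which holds the core on both strands, and the CCAAT box (CCAAT, or ATTGG on the other strand). The windows lie at chr14:47189364-47189663 on the minus strand (Gch1), chr7:142899946-142900245 on the minus strand (Th), chr2:27165257-27165556 on the plus strand (Dbh) and chr19:59260628-59260927 on the plus strand (Slc18a2).
Gch1: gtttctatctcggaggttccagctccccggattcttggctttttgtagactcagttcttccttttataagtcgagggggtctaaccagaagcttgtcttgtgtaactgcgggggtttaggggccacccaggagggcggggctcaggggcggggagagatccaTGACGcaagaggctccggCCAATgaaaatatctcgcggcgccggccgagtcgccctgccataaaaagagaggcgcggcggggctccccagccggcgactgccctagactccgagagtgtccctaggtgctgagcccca
Th: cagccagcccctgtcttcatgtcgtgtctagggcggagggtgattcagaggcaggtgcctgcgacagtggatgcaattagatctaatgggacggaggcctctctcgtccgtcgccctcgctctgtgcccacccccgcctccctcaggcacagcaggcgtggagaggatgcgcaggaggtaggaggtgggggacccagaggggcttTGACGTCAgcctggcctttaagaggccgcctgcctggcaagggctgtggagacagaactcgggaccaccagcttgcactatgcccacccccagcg
Dbh: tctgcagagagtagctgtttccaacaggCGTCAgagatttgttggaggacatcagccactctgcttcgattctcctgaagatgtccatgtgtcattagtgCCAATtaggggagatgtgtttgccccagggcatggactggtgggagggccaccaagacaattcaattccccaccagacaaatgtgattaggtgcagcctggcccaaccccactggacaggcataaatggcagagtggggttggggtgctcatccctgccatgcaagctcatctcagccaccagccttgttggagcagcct
Slc18a2: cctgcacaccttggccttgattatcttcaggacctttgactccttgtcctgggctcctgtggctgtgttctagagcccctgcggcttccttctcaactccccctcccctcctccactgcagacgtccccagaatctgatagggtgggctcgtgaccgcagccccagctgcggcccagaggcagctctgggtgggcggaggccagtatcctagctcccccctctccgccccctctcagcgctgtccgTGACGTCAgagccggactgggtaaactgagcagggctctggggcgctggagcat
The full element TGACGTCA begins 45 bases before the start of Th and 4 bases before that of Slc18a2, and 1.79% of all 32851 promoter windows hold it. Gch1 has the core 88 bases and a CCAAT box 70 bases before its start. Dbh has the core at 222 bases and a CCAAT box at 150 bases. The core is found in 20.8% and the CCAAT box in 37.4% of all windows. Of the 9 genes 6 had a window, with 7 windows in all since Ddc has 2 starts. ATTA, the core letters bound by many homeodomain factors, occurs in the windows of Th, Dbh, Slc18a2 and both of Ddc, but also in 58.0% of all windows. A match is a run of letters and does not show that a factor binds there.

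Gch1 was the most abundant of the 9 genes in both groups. Its level was 45.4, 50.9 and 55.4 RPKM in Sfpq libraries, against 94.0, 86.4 and 99.0 RPKM in Luc libraries. All 3 Sfpq libraries lay below all 3 Luc libraries, which holds for 24.7% of all tested genes. The log2 fold change was -0.88 (SE 0.11, 95% interval -1.12 to -0.63, limma adjusted p = 0.000272). In rRNA-depleted RNA Gch1 was 29.6 RPKM in the Sfpq and 49.3 RPKM in the Luc library, a log2 ratio of -0.72 that has no replicate check. The ratio of Gch1 to Th RPKM within a library was 9.87, 13.2 and 14.4 in Sfpq poly(A) libraries, against 25.6, 21.9 and 31.4 in Luc poly(A) libraries. Gchfr, whose protein binds GTP cyclohydrolase and mediates its feedback inhibition, averaged 35.7 ± 3.51 RPKM in Sfpq and 35.8 ± 5.03 RPKM in Luc libraries (SD, n = 3 each). The ratio of Gch1 to Gchfr RPKM was 1.43, 1.34 and 1.47 in Sfpq poly(A) libraries, against 2.70, 2.09 and 3.16 in Luc poly(A) libraries. In rRNA-depleted RNA Gchfr was lower in the Sfpq library, at 33.6 RPKM against 42.4 RPKM in the Luc library. The ratio there was 0.881 in the Sfpq and 1.16 in the Luc library. Gchfr was chosen for mention after its values were seen.

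Th, the gene of the step that sets the pace of the pathway, had 4.60, 3.87 and 3.84 RPKM in Sfpq libraries, against 3.67, 3.94 and 3.15 RPKM in Luc libraries. The groups overlapped, since Luc replicate 2 lay above 2 of the Sfpq libraries. Its log2 fold change was 0.17 (SE 0.13, limma adjusted p = 0.303), with a 95% interval from -0.11 to 0.46. In rRNA-depleted RNA Th was 1.92 RPKM in the Sfpq and 1.27 RPKM in the Luc library, a log2 ratio of 0.46.

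Ddc was expressed at a low level, 0.975, 0.833 and 1.04 RPKM in Sfpq libraries, against 0.760, 0.334 and 0.563 RPKM in Luc libraries. The Luc libraries spread widely. None of them reached an Sfpq library, which holds for 28.2% of all tested genes. The log2 fold change of 0.48 (SE 0.17) just passed, with a limma adjusted p = 0.0452. Over the alternatives in which Ddc was tested, its adjusted p ran between 0.0241 and 0.136. The call ended without Luc replicate 2 (0.32), without any 1 of Sfpq replicates 1 (0.46), 2 (0.54) and 3 (0.43), and under 4 other settings. In rRNA-depleted RNA Ddc was 0.534 RPKM in the Sfpq and 0.344 RPKM in the Luc library, below the filter there. Ddc was the 1 gene of the 9 with 2 transcript rows in the tables. Their RPKM stood in the same ratio of 0.969 in all 8 libraries, so they give no separate view of the 2 transcripts.

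Dbh had 1.18, 1.61 and 1.51 RPKM in Sfpq libraries, against 0.851, 0.763 and 0.852 RPKM in Luc libraries. All Sfpq libraries lay above all Luc libraries, as for 28.2% of all tested genes. The log2 fold change was 0.54 (SE 0.13, limma adjusted p = 0.00971). The call ended without Sfpq replicate 2, where the log2 fold change was 0.48 (adjusted p = 0.0545). In rRNA-depleted RNA Dbh was 1.11 RPKM in the Sfpq and 0.419 RPKM in the Luc library, a log2 ratio of 0.81. The ratio of Dbh to Th RPKM was 0.257, 0.417 and 0.394 in Sfpq poly(A) libraries, against 0.232, 0.193 and 0.270 in Luc poly(A) libraries. These ratios overlapped through Sfpq replicate 1, the shallowest of the poly(A) libraries.

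Cyb561 had 21.6, 20.9 and 22.2 RPKM in Sfpq libraries, against 16.3, 15.2 and 14.4 RPKM in Luc libraries. The Sfpq values lay close together. They were above every Luc value, which holds for 28.2% of all tested genes. The log2 fold change was 0.48 (SE 0.10, limma adjusted p = 0.00407), and it passed under each of the 16 alternatives, with adjusted p between 0.00111 and 0.0291. In rRNA-depleted RNA Cyb561 was 18.8 RPKM in the Sfpq and 14.4 RPKM in the Luc library, a log2 ratio of 0.38.

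Of the vesicular transporters, Slc18a2 (VMAT2) was the more abundant. It had 4.37, 4.84 and 5.64 RPKM in Sfpq libraries, against 4.74, 4.81 and 5.95 RPKM in Luc libraries. The groups overlapped almost wholly, and the log2 fold change of -0.05 did not pass (SE 0.13, 95% interval -0.36 to 0.25, limma adjusted p = 0.770). Slc18a2 in rRNA-depleted RNA was 2.99 RPKM in the Sfpq and 3.26 RPKM in the Luc library. Slc18a1 (VMAT1), best known from endocrine cells, had 0.295, 0.272 and 0.332 RPKM in Sfpq libraries, against 0.344, 0.372 and 0.322 RPKM in Luc libraries. These ranges overlapped. Slc18a2 RPKM was between 14.8 and 17.8 times that of Slc18a1 in Sfpq libraries and between 12.9 and 18.5 times in Luc libraries.

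The genes for reuptake and breakdown were near 0. Maoa had 0.0158, 0.0630 and 0.154 RPKM in Sfpq libraries, against 0.101, 0.0601 and 0.0773 RPKM in Luc libraries. Slc6a2, the noradrenaline transporter, had 0.0171, 0.00118 and 0.00947 RPKM in Sfpq libraries, against 0.0125, 0.0228 and 0.0190 RPKM in Luc libraries. Both were at most 0.00374 RPKM in the rRNA-depleted Sfpq library and listed at 0 in the rRNA-depleted Luc library. No direction can be read at such levels.

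The order of levels was the same in both groups: Gch1, Cyb561, Slc18a2, Th, Dbh, Ddc, Slc18a1, Maoa and Slc6a2. In Sfpq libraries neighbours overlapped for Slc18a2 with Th and for Maoa with Slc6a2. In Luc libraries Ddc overlapped with Slc18a1, and the other neighbours did not overlap. The mean of Gch1 was higher than that of 94.6% of all genes in Sfpq libraries and of 97.0% in Luc libraries, whereas Dbh stood above 55.8% in Sfpq and 52.8% in Luc libraries.

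**Figure D2:**
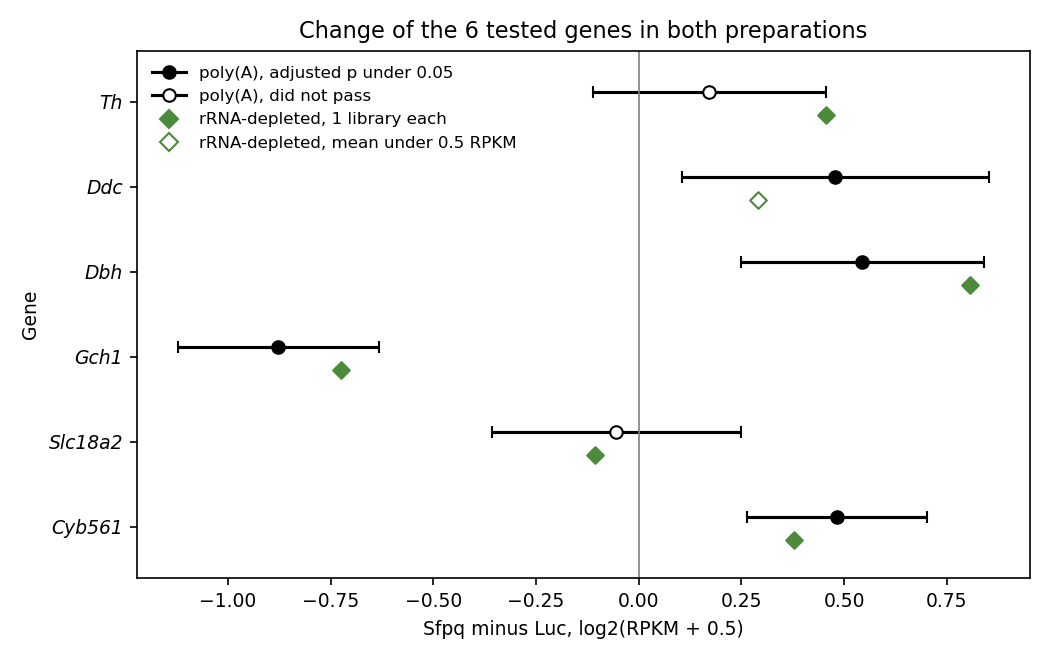
Difference in log2(RPKM + 0.5), Sfpq minus Luc, for the 6 tested genes; circles with 95% intervals are poly(A) RNA (n = 3 each, filled where the adjusted p was under 0.05), and diamonds the rRNA-depleted pair (n = 1 each, open where the mean was under 0.5 RPKM). Each gene has both of its points on the same side of 0, with Gch1 and Slc18a2 to the left.

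In rRNA-depleted RNA 5 of the 9 genes passed the filter of 0.5 RPKM. Dbh, Th and Cyb561 were higher in the Sfpq library and Gch1 and Slc18a2 lower, and none of them passed a log2 ratio of 1 in either direction at the pseudocount of 0.5 RPKM. That of Dbh was 1.22 with a pseudocount of 0.1 RPKM, and its RPKM ratio was 2.64. Among all 11386 genes past that filter, 1.65% reached 1 and 5.18% reached -1, with 48.3% above 0 and 51.7% below. The signs of the 5 genes matched those of the poly(A) fold changes, although Th and Slc18a2 had not passed there. The share of all genes whose signs match was not computed. Nothing further is therefore read from matching signs, here or for the genes below.

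The rest of the pathway was described with 6 lists of 84 genes found in the tables, of which 54 were tested in poly(A) RNA. Of these, 6 were higher, 19 lower and 29 did not pass, which is 11.1% higher and 35.2% lower, against 21.3% and 18.6% of all tested genes. Their median log2 fold change was -0.17, against 0.05 for all tested genes. No test of a list was made, and the lists were chosen with earlier results of these data known. Nothing further is read from these shares or from those of each list below.

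Genes that supply or recycle tetrahydrobiopterin included 4 that fell, 0 that rose and 5 that did not pass (limma; at unadjusted p under 0.05 also 4 lower and 0 higher), beside 18.6% lower and 21.3% higher among all tested genes. Their median log2 fold change was -0.34. Pcbd2, a dehydratase that recycles the oxidised cofactor, fell to 3.49, 2.79 and 4.92 RPKM in Sfpq libraries, against 20.3, 23.2 and 18.0 RPKM in Luc libraries (log2 fold change -2.33, SE 0.18, limma adjusted p = 1.90e-05). Its paralog Pcbd1 averaged 59.4 ± 13.3 RPKM in Sfpq and 59.4 ± 4.05 RPKM in Luc libraries (SD, n = 3 each). Qdpr, the reductase that completes the recycling, fell to 37.9, 34.5 and 37.1 RPKM in Sfpq libraries, against 70.8, 69.7 and 68.5 RPKM in Luc libraries (-0.92, SE 0.09, limma adjusted p = 7.52e-05). Pts, the enzyme that follows GTP cyclohydrolase, fell to 8.19, 7.21 and 7.07 RPKM in Sfpq libraries, against 10.4, 10.0 and 11.5 RPKM in Luc libraries (-0.48, SE 0.11, limma adjusted p = 0.00778). For each of these 3 genes no Sfpq library reached a Luc library, which holds for 24.7% of all tested genes. In rRNA-depleted RNA the log2 ratio was -1.51 for Pcbd2, -0.91 for Qdpr and -0.70 for Pts, and 8 of the 9 genes of the list were lower in the Sfpq library, against 51.7% of all genes.

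Genes of copper, ascorbate and the cytochrome b561 family moved in both directions. Of 12 found, 8 were tested, of which 1 rose, 4 fell and 3 did not pass, with a median log2 fold change of -0.55. For comparison, 21.3% of all tested genes were called higher and 18.6% lower, with a median log2 fold change of 0.05. Slc31a1, the copper importer of the cell surface, fell to 5.16, 5.87 and 5.76 RPKM in Sfpq libraries, against 14.0, 12.9 and 18.2 RPKM in Luc libraries (-1.34, SE 0.14, limma adjusted p = 9.57e-05). Atp7a, the pump that moves copper into the secretory pathway, rose to 4.02, 4.63 and 4.58 RPKM in Sfpq libraries, against 1.92, 1.71 and 2.75 RPKM in Luc libraries (0.92, SE 0.16, limma adjusted p = 0.00161). Pam, a copper enzyme that amidates peptides, had 4.36, 5.64 and 5.68 RPKM in Sfpq libraries, against 9.64, 10.1 and 13.3 RPKM in Luc libraries (-1.002, SE 0.15, limma adjusted p = 0.000902). None of these 3 genes had overlapping groups. Of all tested genes, 28.2% had every Sfpq library above and 24.7% every Sfpq library below the Luc libraries. The ascorbate transporter Slc23a2 fell by 0.58 on the log2 scale (SE 0.11, limma adjusted p = 0.00226), and Cyb561d2, a relative of Cyb561, by 0.62 (SE 0.14, limma adjusted p = 0.00704). The rRNA-depleted log2 ratios of Slc31a1 (-1.28), Atp7a (0.93), Pam (-1.08), Slc23a2 (-0.50) and Cyb561d2 (-0.45) had the same signs. Slc23a2, Cyb561d2, Gchfr and Pcbd1 were chosen for mention after their values were seen.

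**Figure D3:**
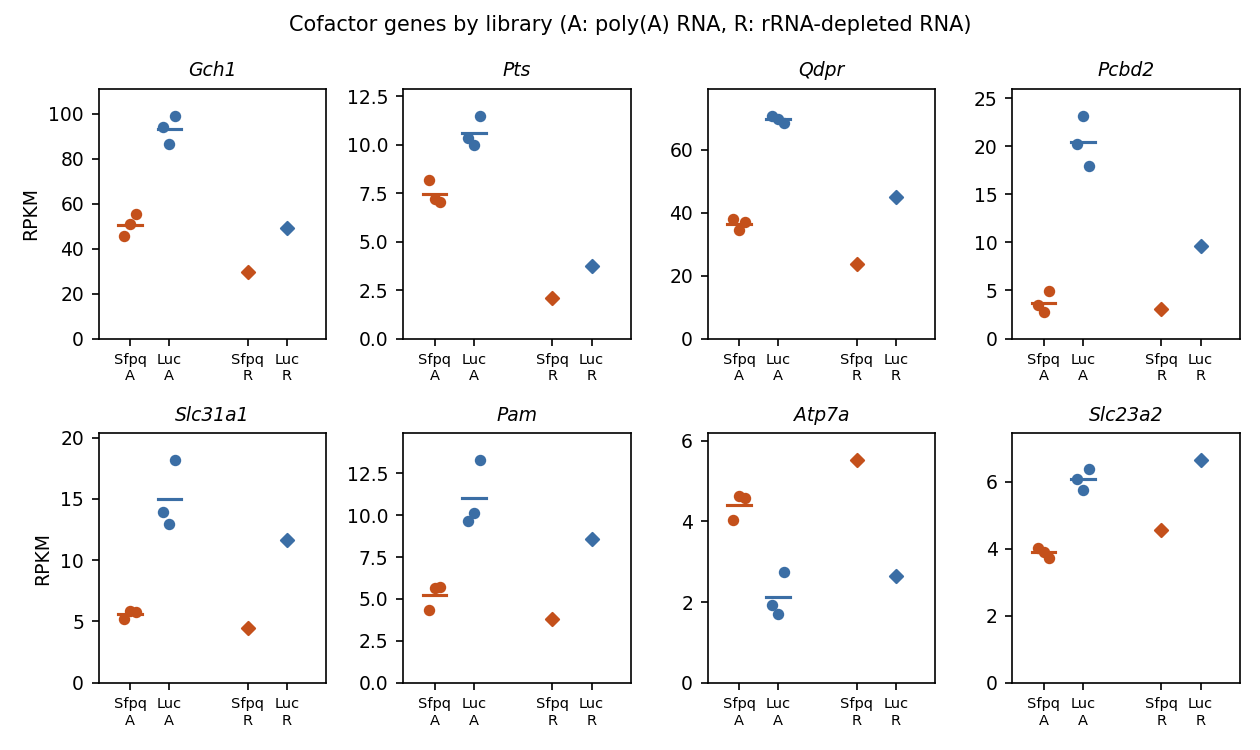
RPKM by library of 4 tetrahydrobiopterin genes (top) and 4 genes of copper and ascorbate handling (bottom), with poly(A) libraries as circles (A, bars are means, n = 3 each) and rRNA-depleted libraries as diamonds (R, n = 1 each). Every gene but Atp7a is lower in Sfpq cells in both preparations, and Atp7a is higher in both.

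Subunits of the proton pump that powers vesicular loading, and also acidifies other compartments, fell in 8 of 16 tested cases, and 0 rose (limma; at unadjusted p under 0.05, 9 were lower and 0 higher). Among all tested genes 18.6% were called lower and 21.3% higher. The median log2 fold change was -0.35. Atp6v0e2 fell to 12.0, 11.5 and 14.0 RPKM in Sfpq libraries, against 30.2, 32.8 and 30.9 RPKM in Luc libraries (-1.29, SE 0.11, limma adjusted p = 2.80e-05). Atp6v0b (-0.88) and Atp6v1g1 (-0.74) followed, and 15 of the 16 genes past the filter were lower in the rRNA-depleted Sfpq library, against 51.7% of all genes.

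Other genes of synthesis, uptake and breakdown did not pass in any of 7 tested cases (limma). Of all tested genes, 40.0% were called in either direction. At unadjusted limma p under 0.05, 1 of the 7 was higher and 0 lower. The most abundant of them were the aldehyde reductase Akr1a1, with 172 ± 17.6 RPKM in Sfpq and 141 ± 15.9 RPKM in Luc libraries, and Adh5, with 68.3 ± 2.50 RPKM in Sfpq and 75.8 ± 8.28 RPKM in Luc libraries (SD, n = 3 each). Akr1a1 (log2 fold change 0.29) was called higher with quantile normalization (0.43), with a replicate block (adjusted p = 0.0425) and without Luc replicate 3 (0.38). Pnmt, which makes adrenaline, and Maob, the other monoamine oxidase, were listed at 0 in all 8 libraries.

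Transcription factors of the noradrenergic lineage rose in 4 and fell in 3 of 13 tested cases, with 6 not past the test and a median log2 fold change of 0.16. That is 30.8% higher and 23.1% lower, against 21.3% and 18.6% of all tested genes. Isl1 fell to 4.79, 4.88 and 5.28 RPKM in Sfpq libraries, against 11.8, 11.0 and 11.7 RPKM in Luc libraries (-1.13, SE 0.10, limma adjusted p = 4.29e-05). Nr4a2, a nuclear receptor known to act on Th in dopaminergic neurons, rose to 2.28, 2.20 and 2.19 RPKM in Sfpq libraries, against 0.669, 1.04 and 0.803 RPKM in Luc libraries (1.04, SE 0.13, limma adjusted p = 0.000369). Isl1 is also among the neuroblast markers. In both genes the groups did not overlap, as for 24.7% (Sfpq below) and 28.2% (Sfpq above) of all tested genes. The rRNA-depleted log2 ratios were -1.14 for Isl1 and 0.73 for Nr4a2. Of 14 catecholamine receptors 7 were at 0 in all poly(A) libraries and 1 was tested. That gene, the dopamine receptor Drd4, had 0.689, 1.09 and 1.06 RPKM in Sfpq libraries, against 0.155, 0.163 and 0.0485 RPKM in Luc libraries (1.21, SE 0.16, limma adjusted p = 0.000380). Drd4 passed the filter only through its Sfpq libraries, so its call among tested genes depends on its being high there, and it is 1 of the 6 pathway genes counted as higher. With no filter on low values its adjusted p was 0.00177.

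**Figure D4:**
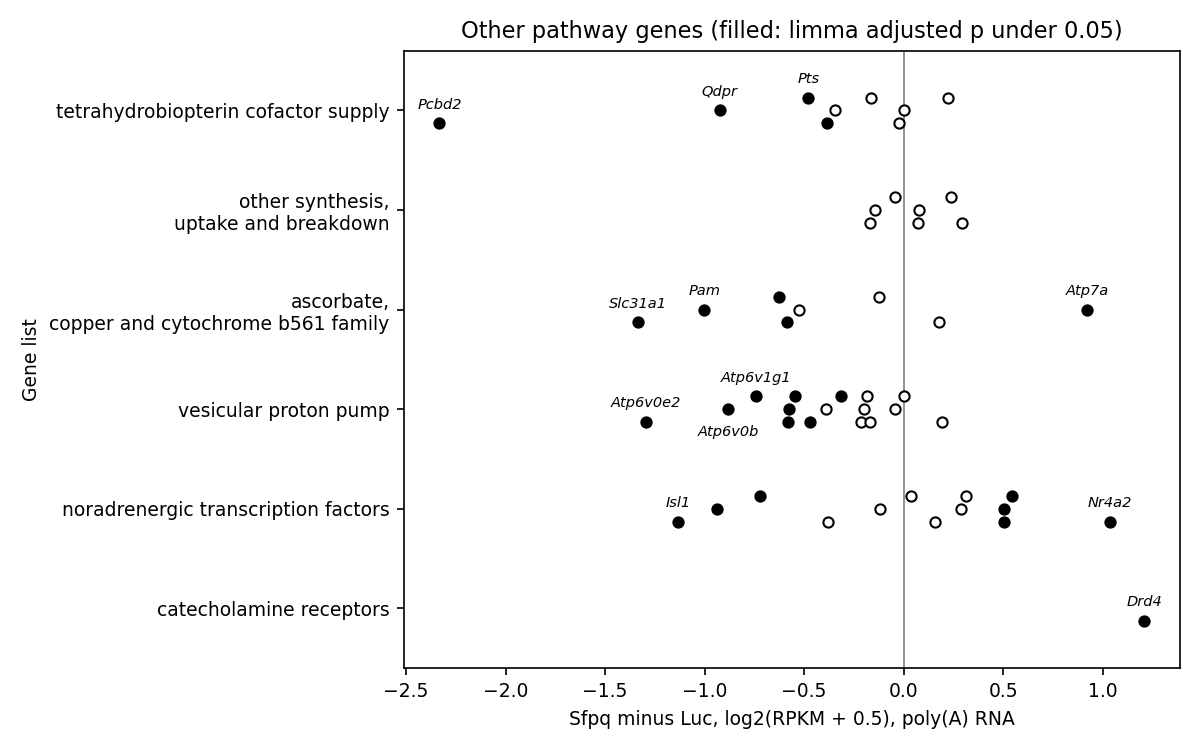
Log2 fold change (Sfpq minus Luc, poly(A) RNA) of each tested gene of the 6 other lists, filled where the limma adjusted p was under 0.05, with up to 3 named per list. Points of the tetrahydrobiopterin, copper and ascorbate, and proton pump lists lie mostly left of 0, and Drd4 is the 1 receptor tested.

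The genes whose profile over the 8 libraries came nearest to that of Gch1 were Mtfmt, Ptgr1 and Btrc, with mean absolute differences of 0.06, 0.06 and 0.07 log2 units after each gene's own mean was subtracted. Those nearest to Dbh were Pank2, Zfp408 and Gxylt1, with differences of 0.06 log2 units each. Mtfmt, which encodes a mitochondrial formyltransferase, had 2.65, 3.04 and 3.00 RPKM in Sfpq libraries, against 5.52, 4.70 and 5.94 RPKM in Luc libraries. Pank2, a mitochondrial pantothenate kinase, had 6.89, 8.98 and 7.77 RPKM in Sfpq libraries, against 4.80, 4.80 and 5.63 RPKM in Luc libraries. Likeness was measured over libraries that share the same groups, and nothing about shared control follows from it.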

How the data were processed

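RNA from 8 Neuro-2a libraries was analysed. Per the file headers, the authors deposited RPKM for each RefSeq transcript, with 1 library per table. TopHat2 2.0.10 and mouse build mm9 are named in the submitters' processing notes. How RPKM was computed, whether strand was used and how multiply matching reads were handled is not stated in the labels or headers, so reads of overlapping genes or near-identical copies cannot be told apart. Transcripts were named through RefSeq tables on GRCm38.p6, used for names and promoter sequence only (30507 of 30978 rows matched, 98.5%), and the row with the highest mean stood for each gene.

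Poly(A) groups were compared with limma 3.58.1 (R 4.3.3), with a trended prior, on log2(RPKM + 0.5), over 11727 genes averaging 0.5 RPKM or more. P-values were adjusted by Benjamini-Hochberg over all of them, with a threshold of 0.05. This scale understates changes of low genes. The rRNA-depleted libraries, 1 per group, gave a log2 ratio on the same scale and no test. No read totals were given. Relative depth came from values under 0.3 RPKM, where 78.8% to 87.6% of pairs matched ratios of whole numbers up to 20 within 0.002 (natural log). The fit was tested on simulated data in which 200 of 11727 genes were changed. It recovered 16% of changes of 0.5 log2 units and 84% of changes of 1, and called 0.0347% of unchanged genes. More genes were called in the real data, so these shares may not carry over.

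The alternatives were other pseudocounts, filters, scalings and transcript rows, limma without trend, a replicate block, and leaving out each library. Genes were named by rule: all 9 catecholamine genes, Sfpq, the 3 called genes with the largest change of each pathway list (the 2 most abundant where none was called), the 2 most abundant of each marker list, and the 3 profiles nearest to Gch1 and Dbh. Some genes that the rule names are not reported here. The genes and lists were chosen with earlier results of these data known. The replicate number was taken from the titles, although the description of Sfpq poly(A) replicate 2 gives replicate 1.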

Additional observations from a re-analysis of the deposited data

How the results depend on the processing

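Gch1 and Cyb561 kept their calls under every alternative run. Ddc did not pass with a pseudocount of 0.1 RPKM (log2 fold change 0.74, adjusted p = 0.0512), with no filter (0.48, adjusted p = 0.0703), with median-ratio scaling (0.45, adjusted p = 0.0593) or with quantile normalization (0.46, adjusted p = 0.0623), and the cause was not tested. Leaving out 1 library at a time gave 0.32 to 0.62 for Ddc and 0.48 to 0.64 for Dbh, whose call ended without Sfpq replicate 2. Slc18a2, never called, ranged from -0.14 to 0.042 and turned positive when Sfpq replicate 1 (0.022) or Luc replicate 3 (0.042) was left out. The uncalled marker Tubb3 (-0.023 to 0.20, negative without Luc replicate 3) also changed sign. Genes called higher numbered 1 of the 9 with a minimum mean of 2 RPKM, which removes Dbh and Ddc, and 1 to 3 when libraries were left out, with 1 without Sfpq replicate 2. In rRNA-depleted RNA the log2 ratio of Dbh was 1.22 with a pseudocount of 0.1 and 0.57 with 1, that of Slc18a1 -0.50 and -0.16, and that of Slc6a2 0.037 with 0.1. Over all genes, calls numbered 1546 higher and 1678 lower without Sfpq replicate 2. They numbered 3621 higher and 2645 lower without Luc replicate 3. With the replicate number as a block, 2681 genes were higher and 2309 lower, and Ddc had an adjusted p of 0.0248. Deviations of same-numbered libraries correlated at 0.33, -0.04 and 0.16, and not every library correlated best with its own number, so the numbers were not taken as pairs. Low RPKM limits what can be said of Dbh, Ddc, Slc18a1, Maoa and Slc6a2, and read totals are unknown.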

Other observations

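The tryptophan hydroxylases, which make serotonin with the same cofactor as Th, moved in opposite directions. Tph1, the form best known outside the brain, had 4.30, 5.50 and 4.95 RPKM in Sfpq poly(A) libraries, against 2.09, 2.96 and 3.92 RPKM in Luc poly(A) libraries (log2 fold change 0.66, limma adjusted p = 0.0204). Tph2, the neuronal form, had 4.41, 2.74 and 2.92 RPKM in Sfpq poly(A) libraries, against 5.58, 4.59 and 7.39 RPKM in Luc poly(A) libraries (-0.72, limma adjusted p = 0.0180). Neither gene had overlapping groups, as for 28.2% (Sfpq above) and 24.7% (Sfpq below) of all tested genes. The ratio of Tph1 to Tph2 RPKM was 0.975, 2.01 and 1.69 in Sfpq libraries, against 0.375, 0.646 and 0.530 in Luc libraries, and 3.40 in the Sfpq against 1.15 in the Luc library of rRNA-depleted RNA. Both calls ended without a filter on low values (adjusted p = 0.0620 for Tph1 and 0.0583 for Tph2) and without Sfpq replicate 2 or 3, and that of Tph1 also without Luc replicate 1.

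Of 4 cholinergic markers 1 was tested, Ache, with 5.65 RPKM on average in Sfpq and 6.59 RPKM in Luc libraries, and it did not pass (limma). Schwann or glial markers summed to between 0.615 and 0.783 RPKM in Sfpq libraries, against between 0.649 and 0.787 RPKM in Luc libraries. Fibroblast markers summed to between 0.793 and 1.23 RPKM in Sfpq libraries, against between 0.839 and 1.11 RPKM in Luc libraries, but their members differed in direction. Pdgfra, the 1 tested, had 0.510, 0.727 and 0.683 RPKM in Sfpq libraries, against 0.333, 0.409 and 0.414 RPKM in Luc libraries. Pdgfra passed the filter only through its Sfpq libraries, so its being tested depends on its being high there. It did not pass (log2 fold change 0.36, limma adjusted p = 0.0555), although it did under some alternatives, such as quantile normalization (adjusted p = 0.0413), and its adjusted p ran between 0.0242 and 0.164 over all of them. Col1a1 and Col1a2 were also above in all Sfpq poly(A) libraries, at up to 0.196 RPKM in Sfpq and 0.0791 RPKM in Luc poly(A) libraries. The rRNA-depleted pair went the other way. There Col1a1 was 0.1625 RPKM in the Sfpq and 0.390 RPKM in the Luc library, and Col1a2 0.127 and 0.408 RPKM. Dcn in poly(A) RNA was at 53.3% of its Luc mean with overlapping groups. Col1a1 and Col1a2 were chosen for mention after their values were seen. The part of these markers in the results was not tested.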
